A study of Mus musculus with 6 samples.

Results

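The genes described here are 9 regulators of transcription that act in the late fetal and early postnatal programme of skeletal muscle and in the choice between slow and fast fibre types. They are Nfix, Nfia, Sox6, Prox1, Six4, Eya1, Eya4, Vgll2 and Tead4, and they were taken by gene symbol from a table of 23367 gene entries, 1 entry for each. The rows were picked by symbol and not by a rule on their values, but the members were chosen with earlier results of these data known. The data are RNA-seq libraries of poly(A) RNA from the gastrocnemius, a calf muscle made mostly of fast fibres in the adult mouse. The study used this series to follow changes in gene expression and splicing while the muscle matures after birth.

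All 6 libraries came from wild type mice of the FVB strain, an inbred laboratory strain, with no transgene and no treatment in any group. The groups were embryonic day 18.5 (E18.5, 1 library from males and females pooled), postnatal day 2 (PN2, 1 library, male), postnatal day 14 (PN14, 2 libraries, male), postnatal day 28 (PN28, 1 library, male) and adult at 22 weeks (1 library, male). The E18.5 and PN2 libraries each combined RNA from several mice, whereas each later library came from 1 mouse. Only PN14 was replicated, so the spread between replicates was measured at this stage alone, and sex changes together with age between E18.5 and PN2. The column names give every library a separate lane number, so lane and stage cannot be told apart. Because the samples were whole muscle, fewer cells of a type and less RNA per cell cannot be told apart either.

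NFIX is a nuclear factor I protein that switches myoblasts from the embryonic to the fetal programme, and NFIA is a close relative that binds the same sites. Sine oculis homeodomain proteins such as SIX4 bind DNA and take EYA proteins as coactivators, and together they turn on fast-fibre genes. SOX6 represses slow-fibre genes in developing fibres, whereas PROX1 favours the slow programme. TEAD proteins bind DNA with coactivators of the YAP family or of the Vestigial-like (VGLL) family, and VGLL2 is the Vestigial-like protein most restricted to skeletal muscle.

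The libraries held between 125402932 and 157868359 counts on genes, so each of the 9 genes was measured with at least 239 counts in every library. The 20 most abundant genes took between 16.0% and 36.9% of a library's counts, the lowest share at E18.5 and the highest in the adult. Values are given on 2 scales for this reason. FPKM (fragments per kilobase of transcript, scaled to the library's total) is the authors' own scale, allows genes to be compared within a library, and lowers every other gene when a few transcripts become very abundant. Normalized CPM (counts scaled to the library's total and then by the trimmed mean of M-values, TMM) sets the bulk of the genes at about the same level in every library. A gene was called changed when its Benjamini-Hochberg adjusted p in edgeR's quasi-likelihood test, over all 16882 genes tested, was under 0.05 and its log2 fold change was no smaller than 1 in either direction, and all 9 genes passed the filter on low counts. "Rose" and "fell" refer to such calls only. The tests between stages rest on the PN14 pair, which leaves 1 residual degree of freedom, and on the spread shared across genes.

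Positions are on the mm9 build. Prox1 and Eya1 share a chromosome, as do Eya4 and Vgll2. Nfix lies on the minus strand at chr8:87223775-87324243, Nfia on the plus strand at chr4:97439425-97868605, Sox6 on the minus strand at chr7:122614858-123182258 and Prox1 on the minus strand at chr1:191945660-191994559. Six4 lies on the minus strand at chr12:74201246-74214401, Eya1 on the minus strand at chr1:14159035-14300281 and Eya4 on the minus strand at chr10:22823974-23069701. Vgll2 lies on the plus strand at chr10:51742308-51748277 and Tead4 on the minus strand at chr6:128174306-128250841. Genes on the opposite strand overlapped 141 of the 7363 annotated exon bases of Nfix, 4 of the 10945 of Nfia and 133 of the 4133 of Prox1, and no exon base of the other members. Whether the counting used strand is not given in the sources used here, so reads from those overlaps cannot be told apart.

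Several of these proteins bind short DNA motifs that also occur in muscle promoters, so the 300 bases around each start site (250 before, 50 after) were searched on both strands for 5 motifs. The MCAT motif of TEAD proteins (CATTCC) was found in 1 of the 9 windows, that of Sox6, against 13.3% of the windows of all 22366 protein-coding genes. The SOX motif (AACAAT) was found in 1 window, that of Eya1, against 10.03% of all windows. The E-box of myogenic factors such as MYOD (CANNTG) was found in 6 of the 9, Nfix, Sox6, Prox1, Eya1, Eya4 and Vgll2, against 69.1% of all windows. The MEF3 motif bound by sine oculis proteins (TCAGGTT) was in 4.01% of all windows and in none of the 9. The full palindromic nuclear factor I motif was in 0.0313% of all windows and in none of the 9. The stretches below are examples that hold the binding letters of one regulator family in front of the gene of another, and not every E-box found is shown. They are written 5′ to 3′ on the strand of the gene, with the motif in capitals, and a match describes the letters only. The SOX motif of Eya1 and the MCAT motif of Sox6 lie on the strand opposite to the gene, and the former overlaps an E-box by sharing its bases.
Sox6, MCAT, chr7:123182348-123182377, minus strand: tcaggaacaaagGGAATGtggaaatgaaag
Eya1, SOX, chr1:14300276-14300305, minus strand: ctgctcctctcaATTGTTgcatttaaacca
Prox1, E-box, chr1:191994586-191994615, minus strand: tcctgtttccttCAGCTGtgtcttaaagta
Eya1, E-box, chr1:14300372-14300401, minus strand: gttcttcccccaCAGCTGtttattcagata
Eya4, E-box, chr10:23069735-23069764, minus strand: ctgtttctccccCACTTGtgtaagctattt

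The windows of 4 of the 9 genes lay above the upper quartile of all windows in G and C content, which was 64.0%. Nfia held 84.0% G and C with 50 CpG dinucleotides, Nfix 75.7% with 51, Vgll2 65.3% with 21 and Eya4 64.7% with 28, against a median over all windows of 55.7% with 12. Eya1, at 40.0% and 6 CpG dinucleotides, and Sox6, at 47.0% and 11, were below that median.

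Vgll2 and Nfix were the most abundant of the 9 genes on the FPKM scale in every library before the adult. Vgll2 led at E18.5 with 44.86 FPKM against 30.25 for Nfix, and Nfix led in the other 5 libraries. Prox1, Six4 and Eya1 were the lowest at E18.5, at 2.85, 2.64 and 2.57 FPKM. The order of the rest differed with age, since Tead4 was the third of the 9 at E18.5 and the eighth in the adult, whereas Sox6 was the sixth at E18.5 and the second in the adult, after Nfix at 46.01 FPKM. In the adult, Vgll2 at 18.94 FPKM and Sox6 at 20.77 FPKM were neighbours in this order, and with 1 adult library their difference has no replicate check. At PN14, where there were 2 libraries, Prox1 at 1.28 ± 0.382, Tead4 at 2.97 ± 0.955 and Six4 at 3.10 ± 0.240 FPKM (mean ± SD, n = 2) were neighbours, and Tead4 and Six4 did not differ beyond their spread, nor did Nfia at 4.27 ± 0.615 and Eya1 at 4.45 FPKM.

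**Figure D1:**
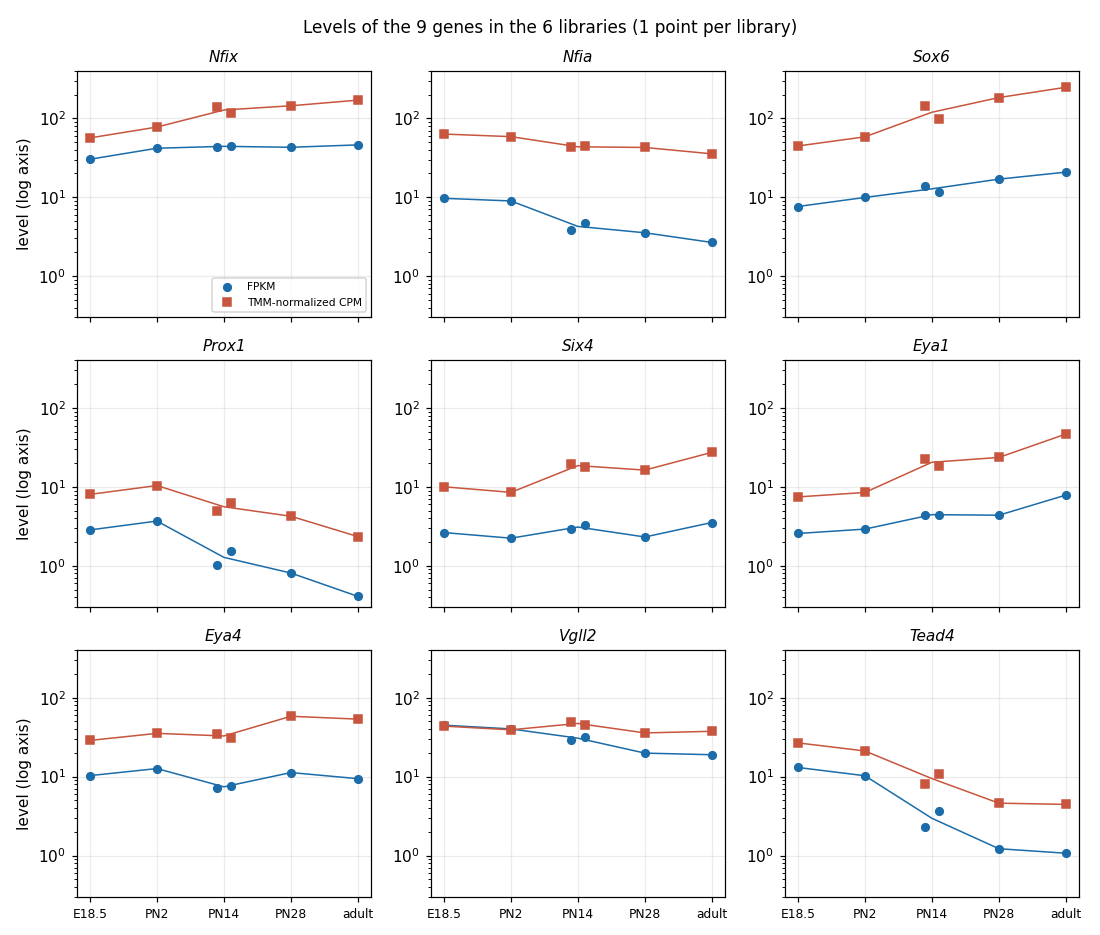
Levels of the 9 genes in the 6 libraries, 1 panel per gene, with stage on the horizontal axis and the level on a log axis in FPKM (circles) and in TMM-normalized CPM (squares). Each point is 1 library and the lines join the stage values. Tead4 runs downward on both scales, from 13.06 to 1.07 FPKM, and Sox6 upward, from 7.62 to 20.77 FPKM, whereas Vgll2 slopes down in FPKM and is near level in normalized CPM.

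Sox6, the repressor of slow-fibre genes, was more abundant at each successive stage. Its level was 7.62 FPKM at E18.5, 9.93 at PN2, 14.02 and 11.50 at PN14, 16.94 at PN28 and 20.77 in adult muscle. Both libraries before PN14 were below all 4 later ones. In normalized CPM the corresponding values were 44.6, 58.2, 142, 96.9, 183 and 247. Sox6 rose from PN2 to PN14 with a log2 fold change of 1.03 ± 0.297 (SE, adjusted p = 0.0458, edgeR's quasi-likelihood test). It rose from E18.5 to adult by 2.47 ± 0.345 on the log2 scale (adjusted p = 0.00286, same edgeR test). The earlier of these calls was at the edge of the threshold, with an adjusted p of 0.0516 in edgeR when the size factors of DESeq2 were used. By library size alone the value from PN2 to PN14 was 0.36 and was not called, and that from E18.5 to adult was 1.45 and was called. The PN14 libraries differed more for Sox6 than for any other member, by -0.55 in log2 normalized CPM (replicate 2 minus replicate 1), a difference at least as large as that of 87.1% of the genes tested.

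Prox1, the homeobox factor of the slow programme, was low throughout and lowest in the adult. The E18.5 and PN2 libraries had 2.85 and 3.69 FPKM of Prox1, the PN14 libraries 1.01 and 1.55, PN28 0.81 and the adult 0.41, where 239 counts lay behind the value. The 2 perinatal libraries were above the 4 later ones. Prox1 fell from E18.5 to adult by 1.78 ± 0.318 on the log2 scale (SE, adjusted p = 0.00598, edgeR). From PN2 to PN14 its log2 fold change of -0.89 ± 0.256 had an adjusted p of 0.0459 in edgeR and was under the fold threshold. From PN2 to PN28 Prox1 fell, with a log2 fold change of -1.29 (adjusted p = 0.0274, edgeR). Prox1 is also a defining gene of lymphatic endothelium. Of 5 markers of that cell type 2 fell from PN2 to PN14, Lyve1 and Pdpn, and none rose. Over all genes tested 11.2% fell and 11.8% rose. From PN2 to PN28 the same 2 fell and 1 rose, Ccl21a, against 12.7% down and 14.3% up. Ccl21a was lowest at PN2, with 7.12 normalized CPM, and highest at PN28, with 18.3. The summed normalized CPM of the 5 was 111 at E18.5, 94.2 at PN2, 46.0 and 58.9 at PN14, 60.9 at PN28 and 52.0 in adult muscle, and each of the 5 had more than 3 counts in every library. The part of these cells in the Prox1 values was not tested.

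Within a library, the ratio of 2 genes does not depend on how libraries are scaled to each other. The FPKM of Sox6 was 2.67 times that of Prox1 at E18.5, and at PN2 the ratio was 2.69. For PN14 it came to 13.9 and 7.42, 20.9 at PN28 and 50.7 in the adult. All 4 later libraries were therefore above both perinatal ones, and on a log scale the gap was wider than that between the PN14 replicates. Sox6 is made in cartilage and in erythroid cells too. Of 6 cartilage markers 5 fell from PN2 to PN14, against 11.2% of all genes tested. The summed normalized CPM of the 6 went from 281 at E18.5 to 6.6 in the adult, opposite to Sox6. Matn1 was at 0 counts in PN14 replicate 1, at PN28 and in the adult. Erythroid markers ranged from 280 in the adult to 3114 at E18.5, with 1349 and 622 in the PN14 libraries, and none of 6 was called from PN2 to PN14. The part of these cells in the Sox6 values was not tested.

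Tead4, a DNA-binding partner of YAP that is prominent in proliferating and differentiating myoblasts, had the largest ratio of highest to lowest FPKM of the 9 genes. In normalized CPM this ratio was largest for Eya1, at 6.26, and Tead4 followed at 6.02. Tead4 was measured at 13.06 FPKM at E18.5, 10.26 at PN2, 2.29 and 3.64 at PN14, 1.22 at PN28 and 1.07 in adult muscle. The perinatal libraries were well above all later ones, and PN28 and adult were near each other. Tead4 fell from PN2 to PN14 by 1.16 ± 0.226 on the log2 scale (SE, adjusted p = 0.0163, edgeR's quasi-likelihood test). It fell by 2.59 ± 0.288 from E18.5 to adult (adjusted p = 0.00180, same edgeR test). From PN14 to PN28 its log2 fold change was -1.04, with an adjusted p of 0.458 in edgeR.

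The composition of the TEAD family differed between libraries as well. Tead1, the form most abundant in mature muscle, was measured at 28.33, 38.67, 30.24, 24.20, 23.64 and 38.79 FPKM in the order of the stages. Its share of the summed FPKM of the 4 TEAD genes was 32.4% at E18.5, 44.8% at PN2, 75.1% and 62.9% at PN14, 79.0% at PN28 and 90.5% in adult muscle. The Tead4 share was 14.9%, 11.9%, 5.7%, 9.5%, 4.1% and 2.5% in the same libraries. Tead2, the paralog best known from embryonic tissue, went from 40.1% of the family at E18.5 to 1.6% in the adult. Tead2 fell from PN2 to PN14 by 1.79 on the log2 scale (adjusted p = 0.00698, edgeR), and Tead1 had a log2 fold change of 0.17 over that interval (adjusted p = 0.734, edgeR). From E18.5 to adult Tead1 rose by 1.48 with TMM (adjusted p = 0.0234, edgeR), a call that was lost by library size alone, and Tead2 and Tead3 fell by 4.62 and 1.23 (adjusted p = 0.00123 and 0.00664, edgeR). The ratio of Tead1 to Tead4 in FPKM was 2.17 at E18.5, 3.77 at PN2, 13.2 and 6.65 at PN14, 19.4 at PN28 and 36.3 in adult muscle.

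Genes around TEAD in the Hippo pathway were called at shares that depended on the comparison and the scaling. Of 10 TEAD coactivators and Hippo kinases 1 fell from PN2 to PN14, the kinase gene Stk3, with a log2 fold change of -1.02 (adjusted p = 0.0167, edgeR), and the median of the 10 was -0.30 against -0.01 over all genes tested, of which 11.2% fell. From E18.5 to adult 3 of the 10 fell, Stk3, Wwtr1 and Mob1a, and 1 rose, Nf2, against 23.6% and 21.4% of all genes. By library size alone 5 of the 10 fell from PN2 to PN14, against 29.4% of all genes. Yap1, the coactivator, had a log2 fold change of -0.56 from PN2 to PN14 with TMM (adjusted p = 0.0725, edgeR). Of 7 genes known as targets of YAP and TEAD 1 fell over that interval with TMM, against 11.2% of all genes. It was the receptor kinase gene Axl, at -1.13 (adjusted p = 0.0186, edgeR). From E18.5 to adult 4 of the 7 fell, Axl, Ankrd1, Ajuba and Amotl2, against 23.6% of all genes. The same 4 fell from PN2 to PN14 by library size alone, against 29.4% of all genes. With TMM, 2 of 5 satellite cell markers fell from PN2 to PN14, against 11.2% of all genes tested. They were Myf5 at -1.53 (adjusted p = 0.0203, edgeR) and Cdh15 at -1.22 (adjusted p = 0.00981, edgeR). Pax7 was not called, nor were Calcr and Chrdl2, which were highest in PN14 replicate 2, at 5.77 and 2.48 normalized CPM. At E18.5 the summed normalized CPM of the 5 satellite cell markers was 117, of which Cdh15 made up 87.9. The sum was 108 at PN2, 44.4 and 57.7 at PN14, 32.6 at PN28 and 27.8 in adult muscle. None of the 5 was at 0, Tead4 was lower in the same 4 libraries, and the part of such cells in the Tead4 values was not tested.

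Vgll2, the muscle Vestigial-like cofactor, had lower FPKM at later stages and no call in any comparison with TMM. Its FPKM was 44.86 at E18.5, 40.25 at PN2, 29.40 and 32.02 at PN14, 19.86 at PN28 and 18.94 in adult muscle. In normalized CPM the values were 43.7, 39.2, 49.5, 45.0, 35.8 and 37.5, with the 2 PN14 libraries highest. Its log2 fold change from PN2 to PN14 was 0.27 (adjusted p = 0.279, edgeR) with TMM and -0.39 when libraries were scaled by their size alone, so that its sign depended on the scaling. From E18.5 to adult it was -0.22 ± 0.202 (SE, adjusted p = 0.394, edgeR) with TMM and -1.24 by library size alone, where it was called. Within its family, Vgll2 held 61.4% of the summed FPKM at E18.5, 61.2% at PN2, 79.3% and 75.2% at PN14, 71.6% at PN28 and 70.5% in adult muscle. Vgll3 fell from PN2 to PN14 by 1.68 on the log2 scale (adjusted p = 0.00763, edgeR), and its share went from 17.4% at E18.5 to 4.2% in the adult.

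**Figure D2:**
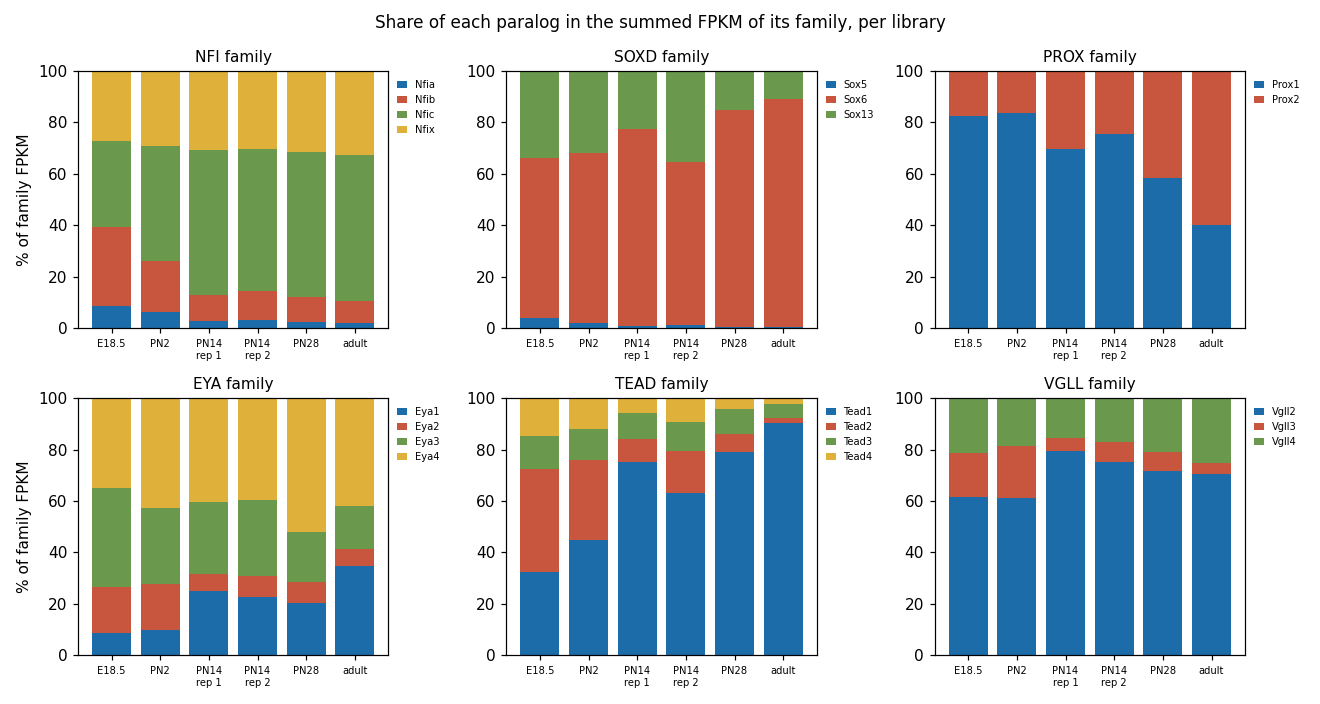
Share of each paralog in the summed FPKM of its family (percent, vertical axis from 0 to 100) in each of the 6 libraries, 1 panel per family and 1 stacked bar per library. Tead1 takes 32.4% of the TEAD bar at E18.5 and 90.5% in the adult, Sox6 grows from 62.3% to 88.8% of the SOXD bar, and Prox1 shrinks from 82.4% to 40.2% of the PROX bar.

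Nfix, the regulator of the fetal programme, was abundant at every age. Nfix stood at 30.25 FPKM at E18.5, 41.73 at PN2, 43.77 and 44.43 at PN14, 42.90 at PN28 and 46.01 in adult muscle. E18.5 was the lowest library, and the other 5 lay within a narrow band on this scale. In normalized CPM the values were 56.4, 77.4, 137, 117, 144 and 170, and both perinatal libraries were below the 4 later ones. Nfix rose from E18.5 to adult by 1.59 ± 0.256 on the log2 scale (SE, adjusted p = 0.00430, edgeR's quasi-likelihood test). By library size alone this value was 0.57 and was not called. From PN2 to PN14 its log2 fold change was 0.72 ± 0.223 (adjusted p = 0.0562, edgeR).

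Nfia, its less abundant relative, had lower levels at later stages. Its values were 9.68 FPKM at E18.5, 8.96 at PN2, 3.83 and 4.70 at PN14, 3.54 at PN28 and 2.67 in adult muscle. Both perinatal libraries were above the later ones. In normalized CPM it went from 63.1 at E18.5 to 35.4 in the adult. Its log2 fold change from E18.5 to adult, -0.83 ± 0.198 (SE), had an adjusted p of 0.0155 in edgeR and was under the fold threshold with TMM, whereas by library size alone it was -1.86 and was called. The ratio of Nfix to Nfia in FPKM was 3.13 at E18.5, 4.66 at PN2, 11.4 and 9.45 at PN14, 12.1 at PN28 and 17.2 in adult muscle.

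Nfix kept a share of the summed FPKM of the 4 nuclear factor I genes between 27.5% at E18.5 and 32.8% in the adult, and the Nfia share went from 8.8% to 1.9%. Nfic, the most abundant of the family in every library, went from 33.3% to 56.7%, and Nfib from 30.4% to 8.6%. Of these 4 genes, Nfix and Nfic rose from E18.5 to adult, as 21.4% of all genes tested did. Nfic rose by 2.15 on the log2 scale (adjusted p = 0.00616, edgeR), and none of the 4 was called from PN2 to PN14. Of 8 genes tied to NFIX and the fetal programme, among them the creatine kinase gene Ckm and the enolase gene Eno3, none was called from PN2 to PN14 with TMM. With library size as the scaling, 2 of the 8 rose over that interval, Ckm and Eno3, against 5.06% of all genes tested. On that scaling 4 of the 8 fell, Jund, Trps1, Nfatc4 and Foxk1, against 29.4%. With TMM, Mstn and Prkcq rose and Jund and Nfatc4 fell from E18.5 to adult. These calls were 2 of 8 in each direction, against 21.4% up and 23.6% down of all genes. In the perinatal libraries against the later ones Ckm, Eno3 and Prkcq rose and Nfatc4 fell, against 15.1% up and 15.3% down. Eno3, a classical NFIX target, had a log2 fold change of 2.01 ± 0.841 from PN2 to PN14 with TMM (SE, adjusted p = 0.117, edgeR) and Ckm 2.65 ± 1.53 (adjusted p = 0.225, edgeR), with standard errors far above those of the 9 regulators.

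Eya1, a coactivator of sine oculis proteins that has been placed upstream of the fast-fibre programme, had the largest fitted rise of the 9 genes from E18.5 to adult. It was measured at 2.57 FPKM at E18.5, 2.92 at PN2, 4.45 in both PN14 libraries, 4.38 at PN28 and 7.88 in the adult. The perinatal libraries were lowest and the adult was highest. Eya1 rose from PN2 to PN14 by 1.27 ± 0.203 on the log2 scale (SE, adjusted p = 0.0102, edgeR's quasi-likelihood test). It rose by 2.65 ± 0.235 from E18.5 to adult (adjusted p = 0.00126, same edgeR test). By library size alone the first value was 0.61 and was not called, and the second was 1.62 and was called. From PN28 to adult its log2 fold change was 0.98 (adjusted p = 0.106, edgeR).

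Six4, a homeodomain protein of muscle precursors and fibres, had a narrow range of FPKM. The values were 2.64 at E18.5, 2.24 at PN2, 2.93 and 3.27 at PN14, 2.32 at PN28 and 3.54 FPKM in adult muscle. The order of the libraries did not follow age on this scale, since PN28 lay between PN2 and E18.5. In normalized CPM the values were 10.04, 8.53, 19.3, 17.99, 16.3 and 27.4, so that all 4 later libraries were above both perinatal ones. With TMM, Six4 rose from PN2 to PN14 by 1.13 ± 0.187 on the log2 scale (SE, adjusted p = 0.0112, edgeR) and from E18.5 to adult by 1.45 ± 0.209 (adjusted p = 0.00306, edgeR). By library size alone these were 0.47 and 0.42 and neither was called.

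Eya4, the most abundant Eya gene in every library after E18.5, had no call in any comparison. Its level was 10.30 FPKM at E18.5, 12.65 at PN2, 7.15 and 7.70 at PN14, 11.26 at PN28 and 9.42 in adult muscle, with the 2 PN14 libraries lowest. In normalized CPM the values were 28.8, 35.3, 34.5, 31.1, 58.2 and 53.5. Its log2 fold change from E18.5 to adult was 0.90 ± 0.205 (SE, adjusted p = 0.0135, edgeR) with TMM, under the fold threshold, and -0.13 by library size alone. From PN14 to PN28 it was 0.83 (adjusted p = 0.392, edgeR).

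The 2 Eya genes were closer in level after PN2. The ratio of Eya4 to Eya1 in FPKM was 4.01 at E18.5, 4.33 at PN2, 1.61 and 1.73 at PN14, 2.57 at PN28 and 1.20 in adult muscle. The Eya1 share of the summed FPKM of the 4 EYA genes was 8.8%, 9.9%, 25.1%, 22.8%, 20.2% and 34.9% in the order of the libraries. Eya2 fell from PN2 to PN14 by 1.32 (log2, adjusted p = 0.0137, edgeR). Six2, a paralog of Six4 known from connective tissue and kidney, rose from PN2 to PN14 by 1.24 with TMM (log2, adjusted p = 0.0322, edgeR), a call that was lost by library size alone.

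Counted together, 4 of the 9 genes were called from PN2 to PN14, where 23.0% of all genes tested were called (11.8% up and 11.2% down): Sox6, Six4 and Eya1 rose and Tead4 fell. Over the whole span from E18.5 to adult 6 of 9 were called, against 44.9% of all genes tested (21.4% up and 23.6% down), with Nfix, Sox6, Six4 and Eya1 up and Prox1 and Tead4 down. From PN2 to PN28 4 of 9 were called, against 27.0% (14.3% up and 12.7% down), with Sox6 and Eya1 up and Prox1 and Tead4 down. The 3 comparisons share libraries with one another. By library size alone, a scaling that moves the median of all genes by -0.66 from PN2 to PN14 and by -1.08 from E18.5 to adult (log2), the split was 0 up and 3 down (Nfia, Prox1 and Tead4) in the former comparison, against 5.06% up and 29.4% down of all genes. In the latter it was 2 up (Sox6 and Eya1) and 4 down (Nfia, Prox1, Vgll2 and Tead4), against 7.98% and 45.6%, and from PN2 to PN28 it was 0 up and 4 down, against 5.05% and 37.3%. Nfia, Prox1 and Tead4 had negative log2 fold changes, and Nfix, Sox6, Six4 and Eya1 positive ones, in these 3 comparisons on both scalings. By library size alone some of these were near 0, with Six4 at 0.051 and Nfix at 0.0092 from PN2 to PN28. Nfix was at 0.055 from PN2 to PN14 on that scaling.

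**Figure D3:**
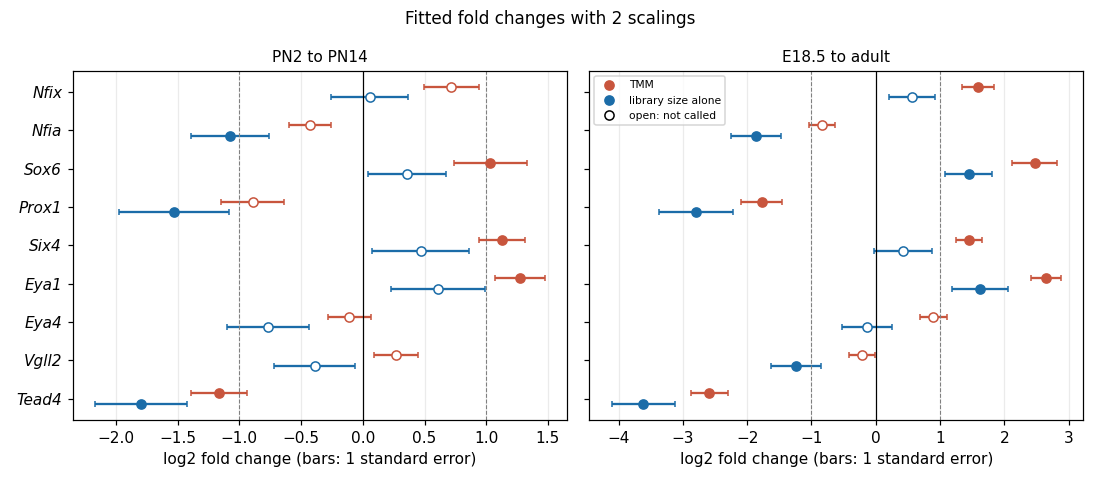
Fitted log2 fold changes of the 9 genes from PN2 to PN14 (left) and from E18.5 to adult (right), with TMM and with library size alone; bars are 1 standard error, dashed lines mark a log2 fold change of 1 in size, and open points were not called. The points by library size lie to the left of the TMM points for every gene, which turns the sign of Vgll2 on the left (0.27 to -0.39) and of Eya4 on the right (0.90 to -0.13).

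The other steps between neighbouring stages gave no call among the 9 genes in edgeR's quasi-likelihood test, edgeR's exact test or DESeq2. From E18.5 to PN2, where 0.0296% of all genes tested were called (0.0178% up and 0.0118% down), 0 members had an unadjusted p under 0.05 in edgeR's quasi-likelihood test, as 6.64% of all genes did. From PN14 to PN28, with 0.0178% of all genes called, 2 members had an unadjusted p under 0.05, Tead4 and Eya4, against 8.41% of all genes. From PN28 to adult, with 0.521% called (0.160% up and 0.361% down), 3 did, Prox1, Six4 and Eya1, against 18.3% of all genes. Of the net log2 change between E18.5 and adult, the step from PN2 to PN14 made up 44.8% for Nfix, 40.8% for Sox6, 51.5% for Prox1, 51.3% for Nfia, 47.7% for Eya1, 45.6% for Tead4 and 77.5% for Six4, in normalized CPM. For Eya4 (-12.4%) and Vgll2 (-122.8%) this step ran against the net change, which was 0.894 and -0.217 on the log2 scale. Six4 and Prox1 also had steps in both directions, and of their summed path the step was 49.0% and 36.1%.

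A fit of the 2 perinatal libraries against the 4 later ones does not rest on the PN14 pair alone, with 4 residual degrees of freedom, but counts changes with age inside each period as spread. The boundary between PN2 and PN14 was chosen with earlier results of these data known, so the fit is not an independent check. In this fit 5 of 9 genes were called, against 30.4% of all genes tested (15.1% up and 15.3% down). Nfix rose by 1.09 ± 0.216 (log2, SE, adjusted p = 0.0104, edgeR), Sox6 by 1.70 (adjusted p = 0.0171, edgeR), Six4 by 1.12 (adjusted p = 0.0140, edgeR) and Eya1 by 1.80 (adjusted p = 0.0162, edgeR), and Tead4 fell by 1.78 (adjusted p = 0.0133, edgeR). Prox1 had a log2 fold change of -1.05 ± 0.371 (adjusted p = 0.0590, edgeR). The count was 0 without the E18.5 library, 2 without PN2 and 3 without the adult. By library size alone it was 3, with 0 up and Nfia, Prox1 and Tead4 down (5.56% up and 37.2% down of all genes), so that only Tead4 was called with both scalings.

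Contractile genes that mark fibre types and developmental stages were tested over the same interval. Of 13 fast-fibre genes 5 rose from PN2 to PN14 and none fell, against 11.8% up and 11.2% down over all genes, with a median log2 fold change of 2.93. All 13 rose by library size alone, as they did with TMM in the perinatal libraries against the later ones. Pvalb, the calcium buffer of fast fibres, was measured at 71.26 FPKM at E18.5, 93.70 at PN2 and 20738.90 and 14166.50 at PN14, a log2 fold change of 8.23 ± 1.62 from PN2 (SE, adjusted p = 0.0167, edgeR). Of 11 slow-fibre genes 2 rose, Myl2 and Myl3, and 2 fell, Myh7b and Casq2, each 2 of 11 beside the shares of all genes just given. Myl3, a slow myosin light chain gene, rose by 1.95 (log2, adjusted p = 0.0248, edgeR), and Casq2, the slow and cardiac calsequestrin gene, fell by 2.05 (adjusted p = 0.00763, edgeR). Of 6 embryonic and neonatal contractile genes 5 fell, the largest being Myh8, the neonatal myosin heavy chain gene, from 4064.69 FPKM at PN2 to 8.25 and 31.05 at PN14 (log2 fold change -7.10, adjusted p = 0.00784, edgeR). Of 5 NFAT factors, which carry calcium signals to the nucleus, none was called over this interval with TMM. By library size alone 2 of the 5 fell, Nfatc2 and Nfatc4, against 29.4% of all genes tested.

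The labelled tissue was checked against its markers. The summed normalized CPM of 5 muscle fibre markers was the highest of the 10 cell type lists in every library. Fibroblast markers went from 14316 at E18.5 to 1538 in the adult, and Schwann cell markers stood at 73.2 at E18.5 and at 506 and 1674 in the PN14 libraries, so the replicates of that stage differed in these markers. Of the other lists, endothelium had 1 of 5 genes up from PN2 to PN14 (Tie1) and adipocyte markers 1 up (Lep) and 2 down (Plin1 and Adipoq) of 5. Over all genes tested 11.8% rose and 11.2% fell. Muscle fibre, fibroblast, Schwann cell and macrophage markers had none called with TMM. The summed normalized CPM of muscle fibre markers was nevertheless 23891 at PN2 and 158890 and 111834 at PN14, with a median log2 fold change of 1.93. The lack of a call there does not show a lack of change. By library size alone 3 of 5 muscle fibre markers rose from PN2 to PN14, against 5.06% of all genes tested, and Tie1 was not called. On that scaling 3 of 5 fibroblast and 2 of 5 each of Schwann cell and macrophage markers fell, against 29.4% of all genes. The part of these cell types in the levels of the 9 genes was not tested.

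**Figure D4:**
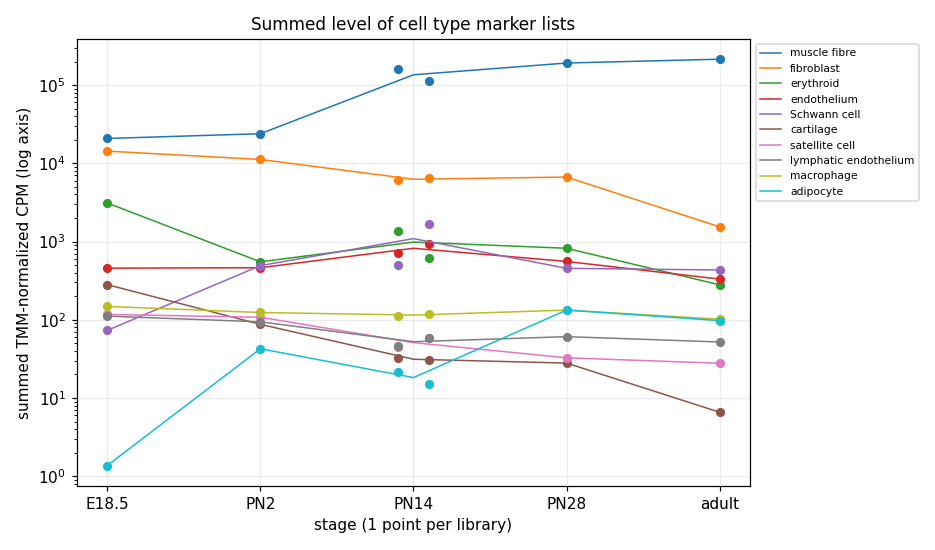
Summed TMM-normalized CPM (log axis) of 10 lists of cell type markers by stage; each point is 1 library and the lines join the stage values. Muscle fibre markers are highest throughout, cartilage markers go from 281 at E18.5 to 6.6 in the adult, and fibroblast markers from 14316 to 1538.

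Among the members themselves, the most alike profiles were those of Sox6 and Eya1, with a root mean square difference of 0.20 in centred log2 normalized CPM over the 6 libraries, followed by Nfix and Six4 at 0.25 and Nfia and Vgll2 at 0.30. Over the 10550 genes searched, Tead4 had the fewest close neighbours, 30 within 0.25, and Nfia the most, 1941. The 2 genes most like Tead4 were Nt5c2 and Slc22a17, both at 0.15. Those most like Sox6 were Pstpip2 at 0.07 and 5730455P16Rik at 0.08, and those most like Prox1 were Arhgef40 and Nipsnap3b, at 0.08 and 0.09. Eya1 was closest to A930005H10Rik at 0.06 and Krba1 at 0.07, and Eya4 to Agpat2 at 0.08 and Cebpa at 0.10. Six4 was closest to Ctdnep1 and Abca7 (both 0.12), Nfix to Hoxc9 (0.03) and Habp4 (0.04), Nfia to Ssbp4 and Fpgs (both 0.03) and Vgll2 to Mtx3 and Mbd6 (both 0.05). With 6 points per profile and 1 library for 4 of the 5 stages, these neighbours are a description of the libraries.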

How the data were processed

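RNA was sequenced by the authors from FVB gastrocnemius at 5 stages in 6 libraries. Per the labels, reads were aligned with TopHat2 2.0.5 to mm9. The deposited table holds, over RefSeq gene models per the file headers, RSEM expected counts and FPKM values per gene, as the authors made them. RSEM's version and strand setting are not given in the sources used here. Expected counts were rounded to whole numbers, filtered with filterByExpr by stage, scaled by TMM and fitted in edgeR 4.0.16 (R 4.3.3) with the quasi-likelihood test, all stages in 1 fit. The common biological coefficient of variation was 0.188. No test was run on FPKM values, which have no pseudocount here. Log2 normalized CPM profiles had 0.1 CPM added, and genes with a mean of at least 5 CPM were searched for likeness. DESeq2 1.42.0, edgeR's exact test, library size scaling and other filters were the alternatives. All members, their paralogs and, from each other list, the called gene with the largest change in each direction from PN2 to PN14 that reached 1 FPKM were named, plus genes needed beside a result. Some of these genes are not reported here. The members, the lists and the boundary between perinatal and later libraries were chosen with earlier results of these data known. Promoters and positions came from the mm9 genome and the GENCODE M1 annotation. Scripts were tested on simulated data. Libraries held 125402932 to 157868359 counts, so that counting error was small beside the spread between libraries.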

Additional observations from a re-analysis of the deposited data

How the results depend on the processing

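Of 63 log2 fold changes (9 genes in 7 comparisons), 62 kept their direction and side of the threshold with DESeq2's test, 62 with its size factors in edgeR, 62 with edgeR's exact test, 61 with a mean of at least 1 CPM and 63 without a filter. Sox6 from PN2 to PN14 lost its call with the size factors (1.02, adjusted p = 0.0516, edgeR) and at a mean of 1 CPM (0.99, adjusted p = 0.0574, edgeR). Prox1 between perinatal and later libraries was called with DESeq2 (adjusted p = 0.0233) and in edgeR's exact test (adjusted p = 0.0293). Scaling by library size alone kept 36, weakened 11, strengthened 8 and turned the sign of 8. The latter were Vgll2 at -0.39 from PN2 to PN14, -0.069 from PN28 to adult and -0.76 between perinatal and later libraries, Nfix at -0.046 and Eya1 at -0.020 from PN14 to PN28, and Eya4 at -0.13 from E18.5 to adult, -0.17 from PN2 to PN28 and -0.37 between perinatal and later libraries. This scaling does not correct for the few fibre genes that take up more of the later libraries. It called 3 members between perinatal and later libraries (0 up, 3 down) in place of 5 (4 up, 1 down). Vgll2 in that comparison, near 0 at 0.02, was also -0.039 at a mean of 1 CPM, -0.070 and -0.028 without PN14 replicate 1 or 2, and -0.059 without PN2 (range -0.070 to 0.095 over single libraries left out).

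The number called between perinatal and later libraries was from 0 to 6 when 1 library was left out. It was 0 without E18.5, 2 without PN2, 3 without adult and 6 without PN14 replicate 2, and the fits had fewer libraries. Leaving out a PN14 library leaves no residual degree of freedom in the fit by stage, so those values have no test; the log2 ratio of Sox6 from PN2 to PN14 was 0.73 without PN14 replicate 1 and 1.28 without replicate 2. No paired analysis was possible because the mice were killed for their muscle, so each stage came from different animals. Groups of 1 or 2 libraries are too small to test 1 library against the rest of its group. With 4 of the 5 stages in 1 library each, differences between stages include those between single libraries or animals.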
